A study of Mus musculus and Homo sapiens with 34 samples.

Results

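The genes described here are 10 genes of lipoprotein particles and of the lipid handling that loads them. They comprise 7 apolipoproteins (Apoa1, Apoa4, Apob, Apoc2, Apoc3, Apoe and Apom), the triglyceride transfer protein Mttp, and the liver and intestinal fatty acid binding proteins Fabp1 and Fabp2. They were chosen by symbol, in upper case for the human tables, out of 48431 genes that the 7 deposited count tables list in all. The study sequenced RNA from 34 libraries, 2 for each of 17 groups, to follow the identity of lung adenocarcinoma cells after HNF4α was removed or added and after treatment with the inhibitors MRTX1133 or trametinib. Among their alleles, the 3154 lung organoids carry p53frt, Rosa-FSF-CreERT2 and Hnf4aflox, so that 4-hydroxytamoxifen (4OHT) activates Cre and deletes Hnf4a, and they were given ethanol or 4OHT (2 mM in the labels) for 2 days and collected 2 weeks later. In a separate experiment 3154 organoids received ethanol or 4OHT, each with vehicle or with 3 nM MRTX1133, for which the labels give 48 h. For 3154, 48 h names this experiment below and is not taken as a time since 4OHT. The 1027B lung organoids and the 3311 lung cell line carry, among others, p53frt, Rosa-FSF-CreERT2, Foxa1flox and Foxa2flox, and the labels name no treatment that deletes either Foxa gene in them. The 1027B organoids had 48 h of vehicle, of trametinib, a MEK inhibitor, at 10 nM, or of MRTX1133 at 20 nM, and the 3311 cells had 48 h of vehicle or 50 nM trametinib. The human lung adenocarcinoma lines H358 and H1651 had 48 h of vehicle or 20 nM trametinib, and H1651 cells with a lentiviral HNF4α construct had 7 days without or with 1 µg/mL doxycycline. Each model is a single culture or line, and the labels do not say whether replicates were separate cultures, so p-values measure the spread between these libraries only.

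Apolipoproteins are the protein shell of lipoproteins, the particles that carry triglyceride and cholesterol in blood, and most are made by liver and small intestine. APOB is the structural protein of chylomicrons and very low density lipoprotein and is lipidated by MTTP in the endoplasmic reticulum, while APOA1 is the main protein of high density lipoprotein. FABP1 and FABP2 bind fatty acids in the cytosol of hepatocytes and enterocytes. HNF4α is a nuclear receptor known to activate many of these genes in liver and intestine, whereas APOE is also made by many other cells, including macrophages.

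The depth and the labels were checked before the members were compared. The libraries held 19692517 to 45284286 counts each, and levels are given as CPM, the count per TMM-normalized library total on a common scale. A count of 0 allowed up to 0.0645 to 0.162 CPM, the level of 3 counts in that library. These limits cover counting error only. Hnf4a fell on 4OHT from 371 ± 79.6 to 60.7 ± 10.2 CPM (SD, n = 2 in every group throughout) at 2 weeks (edgeR adjusted p 0.00643) and from 225 ± 6.60 to 49.9 ± 0.677 CPM in the 48 h experiment with vehicle (0.000141). HNF4A rose on doxycycline from 41.5 ± 7.89 to 95.6 ± 1.73 CPM (0.00979). Counting was over the gene as a whole, so deleted exons, and a construct's transcript, are not told apart from the rest. All 4 H358 libraries had 0 counts for HNF4A. All 4 epithelial markers were above 3 counts in every group. Not every table listed every member: 10 members had a row in the 2-week 3154 table and in the 3311 table, 9 in the doxycycline table, 8 in the 48 h 3154 table, 7 in the 1027B table and 4 in each human trametinib table, and a member without a row is not analysed here for that experiment.

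In the mouse genome (GRCm38, GENCODE vM21) several members lie side by side. Apoa1 (ENSMUSG00000032083, chromosome 9, 46228580 to 46230466, plus strand) is followed after 2.466 kb by Apoc3 (46232933 to 46235636, minus strand) and, 5.059 kb further on, by Apoa4 (46240696 to 46243459, plus strand). Apoc2 (chromosome 7, 19671579 to 19677941) and Apoe (19696109 to 19699188) are both on the minus strand with 18.167 kb between them. The other members stand apart: Apob on chromosome 12 (7977648 to 8016835), Apom on chromosome 17 (35128997 to 35132050), Fabp1 on chromosome 6 (71199827 to 71205023), and Mttp (138089854 to 138144968) and Fabp2 (122895072 to 122899506) on chromosome 3. All are protein coding. Exon bases of Apoc2 are shared on the same strand with the annotated gene Gm44805 for 79.5% of their length, and 69.8% of those of Apoa4 lie opposite Gm10680 or Gm47528, so that reads of Apoc2 and Apoa4 are uncertain to the extent that counting could split them.

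The promoters of the 5 members that were lower 2 weeks after Hnf4a deletion are shown because these genes were called lower in that comparison. In the 48 h experiment Mttp was not called with vehicle, and Apoa1, Apoa4 and Fabp1 were not tested or had no row. The windows run from 250 bases before to 50 bases after the RefSeq start (GRCm38.p6), 5′ to 3′ on the gene's strand, and RefSeq starts need not be those of the GENCODE gene. Of the 10 members, 9 had such a window. Capitals mark matches on either strand to CAAAGNNCA, a motif of the HNF4 type, where N is any base and which includes CAAAGTCCA.
Apoa1 (chr9:46228380-46228679, plus strand): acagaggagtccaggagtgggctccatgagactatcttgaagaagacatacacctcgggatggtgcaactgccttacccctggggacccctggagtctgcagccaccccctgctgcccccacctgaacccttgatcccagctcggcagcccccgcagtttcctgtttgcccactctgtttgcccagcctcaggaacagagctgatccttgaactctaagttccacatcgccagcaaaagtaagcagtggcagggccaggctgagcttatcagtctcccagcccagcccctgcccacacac
Apoa4 (chr9:46240594-46240893, plus strand): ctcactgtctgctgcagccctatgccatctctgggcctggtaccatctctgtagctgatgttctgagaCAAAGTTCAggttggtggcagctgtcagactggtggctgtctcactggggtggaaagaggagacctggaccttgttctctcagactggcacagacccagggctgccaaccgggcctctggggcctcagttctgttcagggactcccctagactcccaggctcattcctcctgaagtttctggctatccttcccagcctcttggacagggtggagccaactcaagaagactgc
Apom (chr17:35131752-35132051, minus strand): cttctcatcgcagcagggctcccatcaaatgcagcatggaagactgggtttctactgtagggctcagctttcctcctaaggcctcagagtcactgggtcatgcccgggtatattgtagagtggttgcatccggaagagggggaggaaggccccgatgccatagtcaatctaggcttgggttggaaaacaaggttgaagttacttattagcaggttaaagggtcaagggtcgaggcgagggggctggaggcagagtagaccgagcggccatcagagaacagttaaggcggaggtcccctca
Mttp (chr3:138143369-138143668, minus strand): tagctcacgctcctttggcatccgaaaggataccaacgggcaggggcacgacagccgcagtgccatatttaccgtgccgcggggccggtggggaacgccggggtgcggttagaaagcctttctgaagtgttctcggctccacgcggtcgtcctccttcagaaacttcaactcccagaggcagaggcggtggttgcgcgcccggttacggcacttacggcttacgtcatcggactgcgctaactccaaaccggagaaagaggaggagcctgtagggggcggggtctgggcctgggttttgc
Fabp1 (chr6:71199629-71199928, plus strand): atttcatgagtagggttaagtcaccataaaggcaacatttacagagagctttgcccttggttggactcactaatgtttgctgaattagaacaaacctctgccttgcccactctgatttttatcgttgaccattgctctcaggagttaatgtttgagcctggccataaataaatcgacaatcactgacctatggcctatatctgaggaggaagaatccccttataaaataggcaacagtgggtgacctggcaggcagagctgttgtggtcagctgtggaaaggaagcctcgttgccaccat
Among these, the Apoa4 window held CAAAGTTCA on its own strand, at bases 69 to 77 of 300. The windows of Apoa1, Apom, Fabp1 and Mttp had no match to these letters. Of the other members, Apob (bases 148 to 156) and Fabp2 (bases 114 to 122) each had a match on the opposite strand, and Apoc2 and Apoe had none. Over 32851 RefSeq promoters of the same length, 6.36% held CAAAGNNCA and 0.475% held CAAAGTCCA, which no member held. A match describes letters in a window and is not a measured binding site.

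The member with the highest level per kb of exon was not the same one in the untreated mouse cultures. Per kb of exon, 3154 organoids collected 2 weeks after ethanol held Apom, a carrier of sphingosine-1-phosphate on high density lipoprotein, at 30.1 ± 7.08 CPM per kb, above Apoa1 (11.7 ± 12.0), Fabp1 (8.70 ± 4.81) and Mttp (7.43 ± 1.88). The last 3 overlapped one another. In 3311 vehicle cells the order was Fabp1 at 148 ± 87.7 CPM per kb, then Apoa1 at 24.3 ± 14.9 and Mttp at 15.3 ± 4.64, with the last pair overlapping. In 1027B vehicle organoids it was Apoe at 17.0 ± 5.98 CPM per kb, with Mttp at 2.96 ± 1.21 and Apom at 1.83 ± 0.966. Apob, Apoc2, Apoc3, Apoa4 and Fabp2 were at or below the 3.06 CPM per kb of Apoc2 in 3311, where these genes had a row. The tables were normalized separately, so levels set side by side across cultures were not tested.

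**Figure D1:**
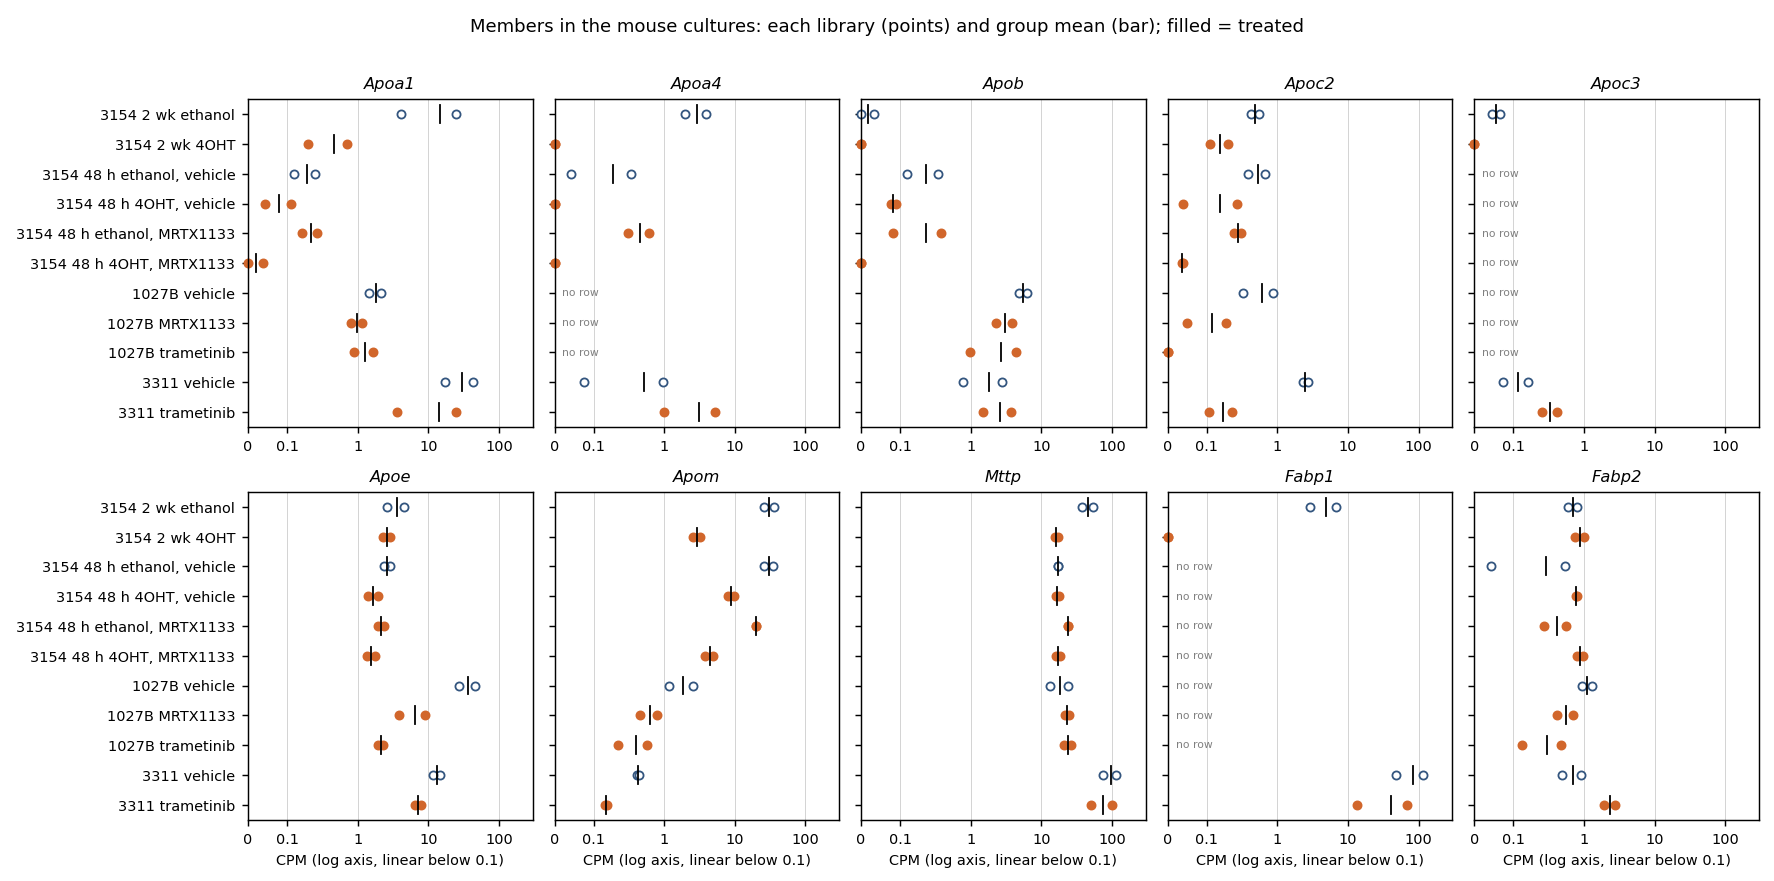
Level of each member in every mouse library, in TMM-scaled CPM on a log axis that is linear below 0.1; open points are ethanol or vehicle without inhibitor, filled points are libraries with 4OHT, MRTX1133 or trametinib, bars are means of the 2 libraries, and "no row" marks a table without that gene. Apom stands between 25.5 and 35.6 CPM in the ethanol libraries of 3154 without inhibitor and between 2.51 and 9.78 CPM in the 4OHT libraries without inhibitor, and Apoe is highest in 1027B vehicle.

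Collected 2 weeks after 4OHT, 3154 organoids had lower levels of 5 members than after ethanol. They were Apom, Apoa1, Apoa4, Mttp and Fabp1, and no member was called higher. Of the 10 members, 8 passed the filter on low counts, and of all 14492 genes tested 5.78% were called lower and 4.03% higher (9.81% in all). Called means an adjusted p under 0.05 in edgeR's quasi-likelihood test, after Benjamini-Hochberg adjustment over all genes tested. Apoa1, Apoa4, Apoc2 and Fabp1 passed the filter through the ethanol libraries, so they could enter the test only as lower, and neither the count nor the median log2 fold change of the tested members (-2.50, against 0.02 for all genes) is support for a direction. In bulk RNA, fewer cells with a transcript and less of it per cell cannot be told apart.

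Among the proteins of high density lipoprotein, Apom measured 35.6 and 25.5 CPM in the ethanol libraries and 3.25 and 2.51 CPM in the 4OHT libraries. The groups lay far apart, and Apom fell by 3.40 on the log2 scale (SE 0.27, adjusted p 0.00592), to 9.43% of its ethanol level. Apoa1 measured 4.06 and 25.0 CPM in ethanol and 0.197 and 0.712 CPM in 4OHT. The ethanol libraries differed more from each other than for any other member named here, yet both were above both 4OHT libraries, and Apoa1 fell by 5.01 (SE 1.07, adjusted p 0.0438). Apoa4, a protein of chylomicrons and high density lipoprotein, had 59 and 86 counts in ethanol and 0 in both 4OHT libraries, which makes it at least 27.5-fold lower against a floor of 3 counts per library (adjusted p 0.0158). All 3 were thus lower in both 4OHT libraries than in either ethanol library.

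Apob and Apoc3, an inhibitor of lipoprotein lipase, were too low to be tested, with at most 1 and 2 counts in any library. Apoc2, the activator of lipoprotein lipase, had 13 and 12 counts in ethanol and 6 and 3 in 4OHT, a log2 difference of -1.59 (SE 0.56) that did not pass (adjusted p 0.132). Apoe, the ligand by which remnants bind receptors, measured 2.57 and 4.54 CPM in ethanol and 2.30 and 2.85 CPM in 4OHT. These overlapped (log2 difference -0.46, SE 0.38, adjusted p 0.465).

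Mttp, which transfers triglyceride onto nascent apolipoprotein B, measured 37.8 and 54.3 CPM in ethanol and 15.4 and 17.0 CPM in 4OHT. It fell by 1.51 (SE 0.22, adjusted p 0.0173), to 35.2% of the ethanol level. Fabp1 had 89 and 149 counts in ethanol and 0 in both 4OHT libraries, at least 45.6-fold lower (adjusted p 0.0150). The other binding protein did not follow it: Fabp2 measured 0.791 and 0.584 CPM in ethanol and 0.985 and 0.750 CPM in 4OHT, which overlapped (log2 difference 0.32, SE 0.41, adjusted p 0.636). The calls of Mttp and Apoa1 rested on both 4OHT libraries: without replicate 1 their adjusted p was 0.0797 and 0.158, and without replicate 2 it was 0.0576 and 0.0836. Leaving out ethanol replicate 2, the library with the higher Apoa1, moved the Apoa1 log2 fold change to -3.17 (adjusted p 0.00459).

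Markers of other cell types moved in the same libraries. The summed level of 4 macrophage markers with a row, of 8 on the list, was 128 to 264 CPM in ethanol and 54.0 to 82.1 CPM in 4OHT, and most of it was Mrc1. Csf1r was also lower (13.2 and 38.1 against 3.45 and 5.14 CPM), while Cd68 was higher (5.11 and 6.24 against 6.30 and 7.76 CPM). Ptprc, the pan-leukocyte marker, was at 2 and 7 counts in ethanol and 5 and 10 in 4OHT. The enterocyte markers with a row (3 of 5) summed to 273 to 292 CPM in ethanol and 96.5 to 116 CPM in 4OHT. The endothelial markers (2 of 3) summed to 5.08 to 5.93 and 2.17 to 2.51 CPM, and the 1 fibroblast marker with a row, of 5, was higher in 4OHT (0.0898 to 0.264 against 0.412 to 0.853 CPM). The hepatocyte markers (2 of 6) overlapped, at 3.63 to 19.5 and 3.28 to 6.78 CPM. Their part in the members' differences was not tested.

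In the 48 h experiment, Apom was again lower after 4OHT and the other members that could be tested were not called with vehicle. Of the 8 members with a row, 4 passed the filter (Apoe, Apom, Mttp and Fabp2), and 31% of all genes tested were called with vehicle (15.3% higher, 15.7% lower), so a call of 1 member in 4 is near that background. Apom measured 25.5 and 34.4 CPM in ethanol and 8.04 and 9.78 CPM in 4OHT, a fall of 1.75 on the log2 scale (SE 0.20, adjusted p 0.000982). Both 4OHT libraries were well below both ethanol libraries. Mttp gave 17.0 CPM in each ethanol library and 16.0 and 17.6 CPM in 4OHT (log2 difference -0.02, SE 0.14, adjusted p 0.932), and its sign turned with upper-quartile scaling (0.06). Apoe measured 2.82 and 2.39 CPM in ethanol and 1.40 and 1.92 CPM in 4OHT, without overlap but not called (-0.65, SE 0.28, adjusted p 0.107). Fabp2 measured 0.0421 and 0.545 CPM in ethanol and 0.796 and 0.759 CPM in 4OHT (1.39, SE 0.73, adjusted p 0.185), and without ethanol replicate 2, which leaves the library with 1 count, it would be called higher (4.05, adjusted p 0.00927). The macrophage markers summed to 53.2 to 69.9 CPM in ethanol and 28.0 to 31.9 CPM in 4OHT, and nearly all of that fall was Mrc1 (47.6 and 64.5 against 26.8 and 22.6 CPM). Cd68 was slightly lower (5.01 and 4.57 against 3.98 and 3.97 CPM), Ptprc was higher (2 and 5 against 15 and 10 counts) and Csf1r overlapped (12 and 16 against 14 and 21 counts). The enterocyte markers summed to 160 to 210 CPM in ethanol and 73.5 to 74.6 CPM in 4OHT, and the fibroblast marker was at 0.168 to 0.337 and 0.447 to 0.493 CPM. Their part was not tested.

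Apom was also lower after deletion in the presence of MRTX1133. It measured 19.9 and 20.2 CPM with ethanol and 3.82 and 4.93 CPM with 4OHT, and fell by 2.19 (SE 0.21, adjusted p 0.000462). Mttp gave 23.4 CPM in each ethanol library and 15.9 and 18.5 CPM with 4OHT, a fall of 0.45 (SE 0.14) that only just passed (adjusted p 0.0440). DESeq2 (adjusted p 0.0549), upper-quartile scaling (0.0971), a stricter count filter (0.0561), a fit of only these 2 groups (0.0656) and leaving out any single library (0.0964 to 0.255) each ended the Mttp call. These 2 calls among 4 tested members stand beside 27.7% of all genes called (13.2% higher, 14.5% lower). Neither Apoe (1.91 and 2.33 against 1.73 and 1.35 CPM, adjusted p 0.249) nor Fabp2 (0.268 and 0.563 against 0.788 and 0.958 CPM, adjusted p 0.269) was called. Macrophage markers summed to 43.7 to 53.2 CPM with ethanol and 13.7 to 16.0 CPM with 4OHT, and of these only Mrc1 was lower in both 4OHT libraries (38.4 and 50.5 against 9.30 and 9.09 CPM). Cd68 (3.79 and 1.89 against 3.00 and 4.26 CPM), Csf1r (37 and 18 against 33 and 67 counts) and Ptprc (3 and 2 against 3 and 8 counts) were not. Enterocyte markers summed to 143 to 182 CPM with ethanol and 64.9 to 67.2 CPM with 4OHT, and the fibroblast marker was at 0.115 to 0.121 and 0.426 to 0.473 CPM. Their part was not tested.

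The members too low to be tested at 48 h were Apoa1, Apoa4, Apob and Apoc2. Apoa4 had 1 and 8 counts with ethanol and vehicle, 8 and 15 with ethanol and MRTX1133, and 0 in all 4 libraries with 4OHT. It was called lower under MRTX1133 without the count filter (adjusted p 0.0331) and with DESeq2 (0.0156), and with vehicle on leaving out ethanol replicate 1 (adjusted p 0.0338). Apob had 8 and 3 counts, then 10 and 2, in the ethanol groups and from 0 to 2 in the 4OHT libraries, and DESeq2 called it lower under MRTX1133 (adjusted p 0.0398). Apoa1 had between 3 and 7 counts in the ethanol libraries and between 0 and 3 in the 4OHT libraries. Apoc2 had between 6 and 16 counts in ethanol and 1, 6, 1 and 1 in 4OHT.

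**Figure D2:**
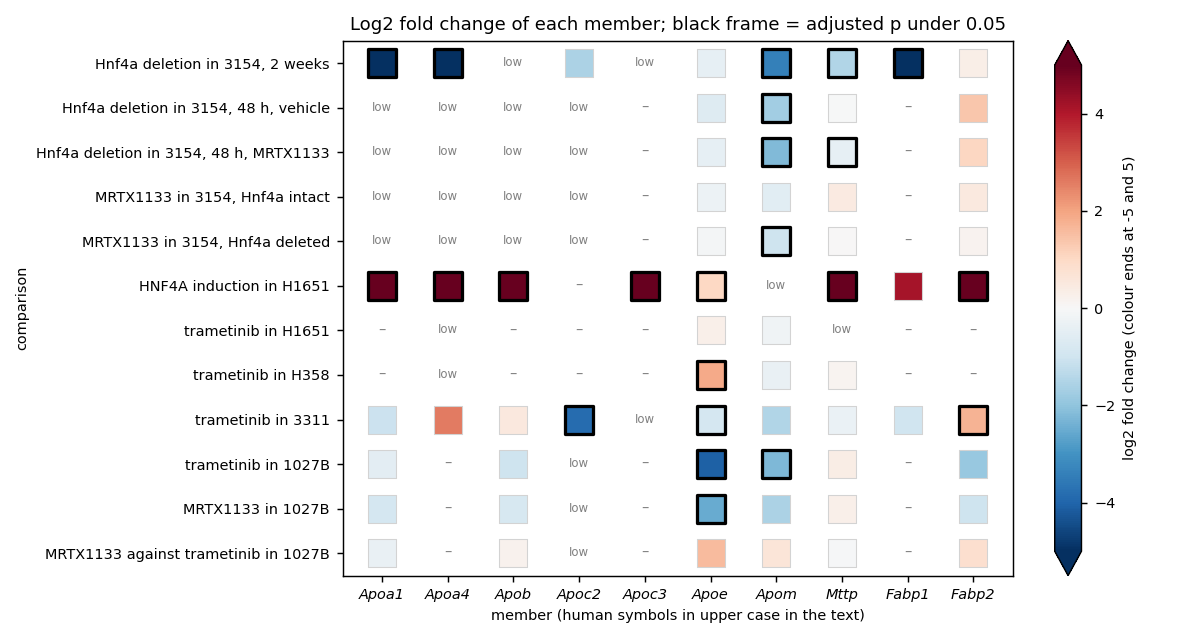
Log2 fold change of each member (columns) in each comparison (rows), with the colour ending at -5 and 5; a black frame marks an adjusted p under 0.05, "low" a member removed by the count filter and a dash a table without the gene. Blue squares with a frame lie in the 2-week deletion row at Apoa1, Apoa4, Apom, Mttp and Fabp1, and red ones with a frame in the doxycycline row at 7 members.

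MRTX1133 itself moved few members in 3154 organoids. With Hnf4a intact, edgeR called none of the 4 tested members and 0.349% of all genes (0.317% higher, 0.0323% lower). DESeq2 also called 0 members, and 2 members had an unadjusted p under 0.05: Apom, at 25.5 and 34.4 CPM with vehicle against 19.9 and 20.2 CPM (log2 difference -0.58, SE 0.19, adjusted p 0.307), and Mttp, at 17.0 CPM in both vehicle libraries against 23.4 CPM in both MRTX1133 libraries (0.46, SE 0.14, adjusted p 0.256). Neither pair of groups overlapped. With Hnf4a deleted, Apom measured 8.04 and 9.78 CPM with vehicle and 3.82 and 4.93 CPM with MRTX1133, and fell by 1.02 (SE 0.21, adjusted p 0.0386), where 4.64% of all genes were called (2.10% higher, 2.54% lower). Hnf4a transcript itself fell there from 49.9 ± 0.677 to 27.5 ± 3.16 CPM. Macrophage markers summed there to 28.0 to 31.9 CPM with vehicle and 13.7 to 16.0 CPM with MRTX1133, and Mrc1 carried that fall (26.8 and 22.6 against 9.30 and 9.09 CPM). Csf1r was higher with MRTX1133 (14 and 21 against 33 and 67 counts), Ptprc was lower (15 and 10 against 3 and 8 counts) and Cd68 overlapped (3.98 and 3.97 against 3.00 and 4.26 CPM). Enterocyte markers summed to 73.5 to 74.6 CPM with vehicle and 64.9 to 67.2 CPM with MRTX1133, and epithelial markers to 5628 to 5732 and 5099 to 5417 CPM. Their part was not tested. The Apom call ended with upper-quartile scaling (adjusted p 0.0540) and without any single library (0.130 to 0.326). The interaction of deletion and inhibitor, which tests whether the response differed, was called for no member and no gene with edgeR, with 0 members and 1150 genes at an unadjusted p under 0.05, and with DESeq2 for 0 members and 30 genes. For Apom the interaction was -0.44 on the log2 scale (SE 0.29, adjusted p 0.838).

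With HNF4α induced in H1651 cells, most tested members were higher. Of 9 members with a row, 8 passed the filter and 7 rose: APOA1, APOA4, APOC3, APOB, APOE, MTTP and FABP2. Genes called higher made up 1.04% of the 17351 tested and genes called lower 0.386% (1.42% in all). All but APOE had at most 11 counts in any library without doxycycline and passed the filter through the doxycycline libraries, so they could enter the test only as higher, and the median log2 fold change of 6.02 (all genes, 0.00) describes that subset.

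**Figure D3:**
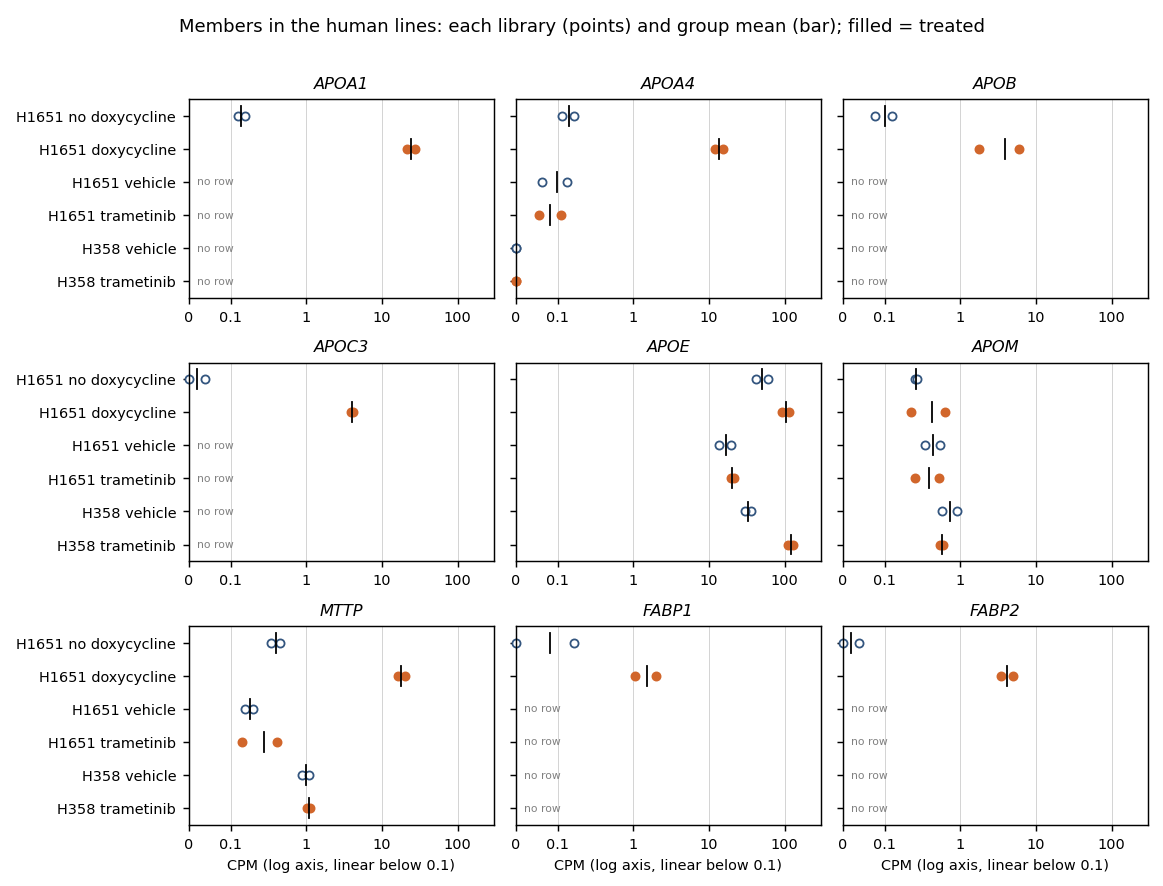
Level of each member in every human library, in TMM-scaled CPM on a log axis that is linear below 0.1; open points are libraries without doxycycline or with vehicle, filled points are libraries with doxycycline or trametinib, and bars are means of the 2 libraries. APOA1, APOA4 and MTTP stand between 11.9 and 27.3 CPM with doxycycline and between 0.115 and 0.453 CPM without it.

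APOA1 (ENSG00000118137) measured 0.124 and 0.153 CPM, which were 3 and 4 counts, without doxycycline and 21.4 and 27.3 CPM with it. The log2 fold change was 7.40 (SE 0.27, adjusted p 0.000416). The human counterparts of its mouse neighbours rose as well. APOA4 (ENSG00000110244) measured 0.165 and 0.115 CPM without and 15.2 and 11.9 CPM with doxycycline (6.56, SE 0.30, adjusted p 0.000493). APOC3 (ENSG00000110245) had 0 and 1 counts without and 105 and 88 with doxycycline, a ratio of 202 with an exact 95% counting interval from 35.9 to 8037 (adjusted p 0.00268).

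For very low density lipoprotein assembly, MTTP (ENSG00000138823) measured 0.453 and 0.344 CPM without and 19.8 and 16.1 CPM with doxycycline (5.48, SE 0.24, adjusted p 0.000416). APOB (ENSG00000084674), its acceptor, had 3 and 2 counts without and 153 and 40 with doxycycline, a ratio of 40.5 (95% counting interval 17.1 to 126, adjusted p 0.0356). The doxycycline libraries of APOB differed widely, at 6.01 and 1.77 CPM, although both were above the untreated libraries. Its log2 fold change was 5.23, and 4.09 to 5.85 on leaving out 1 library. APOE (ENSG00000130203) was the member already present, at 60.0 and 41.1 CPM without and 113 and 93.1 CPM with doxycycline. It rose by 1.03 (SE 0.18, adjusted p 0.0484), and upper-quartile scaling (adjusted p 0.0526) and the stricter count filter (0.0587) ended the call.

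Of the binding proteins, FABP2 (ENSG00000145384) had 0 and 1 counts without and 87 and 111 with doxycycline, a ratio of 208 (95% counting interval 36.8 to 8244, adjusted p 0.00368). The log2 fold change of FABP2 was 7.38, and 6.59 to 9.65 on leaving out 1 library. FABP1 (ENSG00000163586) had 4 and 0 counts without and 50 and 24 with doxycycline. It did not pass (log2 difference 4.17, SE 0.81, adjusted p 0.0669), but it was called with DESeq2 (adjusted p 0.00333), without the count filter (0.0464), and on leaving out untreated replicate 1 (8.24, adjusted p 0.00545) or doxycycline replicate 2 (4.54, adjusted p 0.0135). APOM, which fell in the 3 deletion comparisons of 3154, was not tested here: it had 6 and 7 counts without and 16 and 5 with doxycycline, which overlapped. Hepatocyte markers (5 of 6 with a row) summed to 1244 to 1378 CPM without and 1335 to 1438 CPM with doxycycline, and enterocyte markers (2 of 5) to 7.71 to 9.12 and 13.5 to 14.9 CPM. Fibroblast markers (5 of 5) summed to 228 to 277 CPM without and 167 to 203 CPM with doxycycline, and macrophage markers (5 of 8) to 13.2 to 13.4 and 11.4 to 12.5 CPM. The 4 epithelial markers were higher with doxycycline (4412 to 4415 against 5708 to 6196 CPM), as were the 3 endothelial markers (1.98 to 2.75 against 3.18 to 3.26 CPM). Their part was not tested.

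Under the inhibitors, Apoe was the member called most often outside 3154, but not all members could be called equally often. Only 2 members were tested in H1651 and 3 in H358. Of all genes, 26.7% were called in 1027B with trametinib, 6.27% there with MRTX1133, 39% in 3311 and 46.8% in H358. Apoe fell in 1027B organoids with either inhibitor and in 3311 cells with trametinib, and rose in H358 cells. In 1027B the libraries with the same replicate number deviated together, so values with the replicate number as a block are given where they change a call.

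In 1027B organoids Apoe measured 27.4 and 45.4 CPM with vehicle, 1.96 and 2.29 CPM with trametinib and 3.79 and 9.07 CPM with MRTX1133. Both treated groups lay below both vehicle libraries, which the 2 comparisons share. Apoe fell by 4.10 with trametinib (SE 0.47, adjusted p 0.00219), to 5.83% of the vehicle level, and by 2.52 with MRTX1133 (SE 0.42, adjusted p 0.0231), to 17.7%. The doses differed, at 10 nM and 20 nM. Set directly against trametinib, MRTX1133 left Apoe higher by 1.58 on the log2 scale (SE 0.47), which was not called (adjusted p 0.195) but was called with the block (1.52, adjusted p 0.00686) and with DESeq2 (adjusted p 0.0116). In that direct comparison edgeR called no member and no gene, with 1 member and 2357 genes at an unadjusted p under 0.05, and DESeq2 called 1 member and 675 genes. Leaving out 1 library gave Apoe log2 fold changes from -3.25 to -2.00 with MRTX1133. This fall was not called without vehicle replicate 2 (-2.08) or without MRTX1133 replicate 1 (-2.00).

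Other transcripts moved beside Apoe in 1027B. The 4 macrophage markers with a row summed to 72.2 to 118 CPM with vehicle, 11.8 to 15.0 CPM with trametinib and 26.4 to 32.2 CPM with MRTX1133. Mrc1 made up most of that sum with vehicle and with MRTX1133 (64.0 and 110.4 CPM with vehicle, 4.67 and 8.53 with trametinib, 20.9 and 26.9 with MRTX1133), and Ptprc had 37 and 20, 5 and 4, and 28 and 5 counts. Cd68 was lower with both inhibitors (6.004 and 6.34 CPM with vehicle, 4.01 and 3.96 with trametinib, 3.83 and 4.49 with MRTX1133). Csf1r went the other way, with 10 and 7 counts with vehicle, 66 and 49 with trametinib and 17 and 12 with MRTX1133. The 1 enterocyte marker with a row, of 5, was at 82.4 to 98.0 CPM with vehicle, 41.9 to 50.9 CPM with trametinib and 54.7 to 73.6 CPM with MRTX1133. Epithelial markers summed to 6491 to 6842, 5987 to 6444 and 6080 to 6459 CPM in the same order, and fibroblast markers (2 of 5) to 0.533 to 0.921, 1.03 to 1.69 and 1.11 to 1.69 CPM. Hnf4a measured 459 ± 17.7 CPM with vehicle, 227 ± 37.7 CPM with trametinib and 270.0 ± 39.0 CPM with MRTX1133. The part of these transcripts in the fall of Apoe was not tested.

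Apom was the other member called in 1027B. It measured 1.16 and 2.55 CPM with vehicle, 0.223 and 0.560 CPM with trametinib and 0.446 and 0.798 CPM with MRTX1133, without overlap between vehicle and either inhibitor. It fell by 2.23 with trametinib (SE 0.64, adjusted p 0.0439), a call that ended in a fit of only these 2 groups (0.0506) and without vehicle replicate 2 (-1.54, 0.218), trametinib replicate 1 (-1.71, 0.217) or trametinib replicate 2 (-3.02, 0.0643). With MRTX1133 the log2 difference was -1.59 (SE 0.61, adjusted p 0.182), which was called with the replicate block (-1.53, adjusted p 0.0304). Fabp2 measured 1.31 and 0.921 CPM with vehicle and 0.134 and 0.466 CPM with trametinib (-1.89, SE 0.64, adjusted p 0.0705), and was called with the replicate block (-1.95, adjusted p 0.0343). With MRTX1133 Fabp2 measured 0.409 and 0.698 CPM (adjusted p 0.357). Both genes passed the filter through the vehicle libraries, where they are higher.

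The remaining members of 1027B were not called. Apob measured 4.79 and 6.17 CPM with vehicle, 4.36 and 0.979 CPM with trametinib (-1.03, SE 0.62, adjusted p 0.261) and 3.86 and 2.29 CPM with MRTX1133 (adjusted p 0.479); without trametinib replicate 1 it would be called lower (-2.48, adjusted p 0.0382). Mttp measured 13.1 and 23.7 CPM with vehicle, 26.6 and 21.0 CPM with trametinib and 21.2 and 24.2 CPM with MRTX1133, with overlap in both comparisons (adjusted p 0.356 and 0.568). Without vehicle replicate 2, Mttp would be called higher with trametinib (0.89, adjusted p 0.0499). Apoa1 measured 2.13 and 1.46, 0.890 and 1.63, and 1.15 and 0.798 CPM in the same order (adjusted p 0.430 and 0.309), overlapping vehicle with trametinib and not with MRTX1133. Apoc2 was not tested, with 18 and 6 counts with vehicle, 0 in both trametinib libraries and 5 and 1 with MRTX1133. It was called lower with trametinib by DESeq2 (adjusted p 0.0110) and without the count filter (0.0306). Thus 2 of 6 tested members were called with trametinib, where 26.7% of all genes were (13.5% higher, 13.2% lower), and 1 of 6 with MRTX1133, where 6.27% were (3.01% higher, 3.26% lower).

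In 3311 cells trametinib left 3 of 9 tested members changed, beside 39% of all genes (19.4% higher, 19.6% lower). Apoc2 measured 2.27 and 2.71 CPM with vehicle and 0.108 and 0.228 CPM with trametinib, and fell by 3.86 (SE 0.53, adjusted p 0.00235), having passed the filter through the vehicle libraries only. Apoe, its neighbour on chromosome 7, measured 14.5 and 11.8 CPM and then 6.38 and 7.84 CPM, and fell by 0.89 (SE 0.24, adjusted p 0.0247). Both genes were lower in each trametinib library than in each vehicle library. Fabp2 went the other way, from 0.483 and 0.916 CPM to 1.94 and 2.74 CPM, a rise of 1.74 (SE 0.47, adjusted p 0.0262). The Apoe call ended without vehicle replicate 1 (-0.74, adjusted p 0.0673) or trametinib replicate 1 (-0.75, 0.157), and the Fabp2 call without vehicle replicate 1 (1.34, 0.0914) or trametinib replicate 2 (1.46, 0.133). Macrophage markers summed to 99.1 to 176 CPM with vehicle and 38.2 to 65.1 CPM with trametinib, and Ptprc was at 0 in all 4 libraries. Within that sum Mrc1 (89.6 and 159.8 against 16.4 and 36.5 CPM) and Cd68 (4.87 and 4.06 against 1.54 and 0.951 CPM) were lower with trametinib and Csf1r was higher (4.68 and 11.7 against 20.2 and 27.7 CPM). The 4 epithelial markers summed to 5361 to 6226 CPM with vehicle and 3654 to 4556 CPM with trametinib. Fibroblast (4 of 5) and endothelial (1 of 3) markers were also lower, at 14.9 to 15.8 against 11.4 to 14.4 CPM and 1.31 to 1.45 against 0.717 to 1.22 CPM. Enterocyte markers (3 of 5) were not lower, at 215 to 376 CPM with vehicle and 316 to 497 CPM with trametinib, which overlapped. Their part was not tested.

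The abundant members of 3311 were higher in replicate 2 than in replicate 1 in both groups, and their groups overlapped. Fabp1 measured 47.8 and 116 CPM with vehicle and 13.6 and 67.8 CPM with trametinib (log2 difference -1.01, SE 0.69, adjusted p 0.277). Apoa1 showed the same order, at 17.0 and 43.1 CPM and then 3.55 and 25.0 CPM (-1.07, SE 0.79, adjusted p 0.312). Mttp measured 74.7 and 115 CPM and then 50.8 and 100.1 CPM (-0.33, SE 0.33, adjusted p 0.453). Within each replicate number these 3 were lower with trametinib. With the replicate number as a block, edgeR called Fabp1 (-1.28, adjusted p 0.00346) and Apoa1 (-1.46, 0.00847) lower, and not Mttp (-0.38, 0.0654). Leaving out 1 library gave log2 fold changes from -2.60 to -0.23 for Fabp1, -3.08 to -0.26 for Apoa1 and -0.91 to 0.07 for Mttp. The largest falls were without trametinib replicate 2.

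The other low members of 3311, Apoa4, Apob, Apom and Apoc3, were not called in edgeR. Apoa4 had 2 and 24 counts with vehicle and 28 and 136 with trametinib, without overlap (2.59, SE 1.04, adjusted p 0.0874). It was called with DESeq2 (adjusted p 0.0236). Leaving out 1 library gave Apoa4 log2 fold changes from 0.97 to 5.29. Apob measured 0.780 and 2.79 CPM and then 1.47 and 3.73 CPM (adjusted p 0.549). Apom had 11 counts in each vehicle library and 4 in each trametinib library (-1.49, SE 0.60, adjusted p 0.0867), and passed the filter through the vehicle libraries only. Apoc3 was not tested, with 2 and 4 counts and then 7 and 11. Hepatocyte markers (3 of 6 with a row) summed to 861 to 1043 CPM with vehicle and 306 to 712 CPM with trametinib, and their part in these differences was not tested.

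Of the human lines, H358, which has no HNF4A counts, had higher APOE with trametinib. It measured 35.4 and 29.5 CPM with vehicle and 129 and 111 CPM with trametinib, a rise of 1.88 (SE 0.13, adjusted p 3.59e-05), where 46.8% of all genes were called (23.5% higher, 23.2% lower). APOE was higher in both trametinib libraries and stayed called in all alternatives run for H358. MTTP (0.881 and 1.07 against 1.03 and 1.10 CPM, adjusted p 0.765) and APOM (0.570 and 0.896 against 0.537 and 0.589 CPM, adjusted p 0.434) overlapped, and APOA4 had 0 counts in all 4 libraries. All 5 fibroblast markers had a row and summed to 40.2 to 49.1 CPM with vehicle and 238 to 343 CPM with trametinib, and macrophage markers (5 of 8) to 1.31 to 1.68 and 1.53 to 1.98 CPM. The 4 epithelial markers summed to 4217 to 4309 CPM with vehicle and 2509 to 2916 CPM with trametinib, and the 3 endothelial markers to 11.6 to 14.2 and 20.8 to 21.0 CPM. Their part was not tested.

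In H1651 edgeR without the replicate block called no tested member with trametinib and 0 of 18277 genes. At an unadjusted p under 0.05 were 0 members and 597 genes. DESeq2 called 0 members and 47 genes. With the replicate number as a block, a fit that keeps 1 residual degree of freedom, edgeR called APOE (0.29, adjusted p 0.0203) and 1881 genes. In this line the libraries share only a number, whose deviations correlated at 0.623. APOE measured 19.4 and 13.7 CPM with vehicle and 21.0 and 19.2 CPM with trametinib (log2 difference 0.28, SE 0.19, adjusted p 0.999), and APOM 0.528 and 0.342 against 0.516 and 0.253 CPM (adjusted p 0.999). MTTP had 9 and 5 counts with vehicle and 15 and 5 with trametinib, and APOA4 6 and 2, then 4 and 2. Whether the response of APOE differed between H358 and H1651 was not tested.

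Some members stood at different levels in controls of separate experiments. In 3154 organoids with ethanol and no inhibitor, Apoa1 averaged 14.5 ± 14.8 CPM in the 2-week table and 0.189 ± 0.0888 CPM in the 48 h table, and Apoa4 2.90 ± 1.36 and 0.189 ± 0.208 CPM. Mttp averaged 46.1 ± 11.7 and 17.0 ± 0.00131 CPM, while Apom was alike at 30.5 ± 7.17 and 30.0 ± 6.24 CPM. In H1651, APOE averaged 50.6 ± 13.4 CPM in the cells with the lentiviral construct after 7 days without doxycycline and 16.5 ± 4.02 CPM in the line after 48 h of vehicle, which are not the same culture. The tables were normalized separately and these differences were not tested. In the 48 h ethanol libraries with vehicle, Apoa1 had 3 and 6 counts and Apoa4 1 and 8.

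Other genes of lipoprotein metabolism were counted in 7 lists, and the genes named with values are those with the largest called changes at 10 CPM or more. After 2 weeks of deletion 2 of the 61 tested genes in these lists were called higher and 21 lower, beside 4.03% and 5.78% of all genes. Of 5 tested other apolipoproteins, 4 were called. Apoa5, an activator of triglyceride clearance, fell from 12.4 ± 6.35 to 1.76 ± 0.536 CPM (-2.82, adjusted p 0.0229) and Apoc1 from 292 ± 165 to 72.4 ± 25.8 CPM (-2.01, adjusted p 0.0488). Apoc4 was also lower and Clu higher. In lipid ester synthesis 5 of 10 were lower and none higher: Mogat2, an intestinal monoacylglycerol acyltransferase, fell by 2.46 (adjusted p 0.0178) and Soat2, which esterifies cholesterol, by 2.34 (adjusted p 0.0170), with Gpam, Lpin1 and Dgat2. In assembly and secretion Cideb fell from 83.5 ± 2.85 to 24.2 ± 4.57 CPM and Mia3, a cargo receptor for large secretory loads, rose from 23.7 ± 1.37 to 38.0 ± 0.147 CPM, out of 9 tested. Among the receptors and lipases, Lipa (161 ± 59.8 to 47.7 ± 2.20 CPM), Vldlr and Lpl were lower. Pltp, the phospholipid transfer protein, fell by 1.92 and Abcg5 was lower, of 5 efflux and transfer genes. Fabp5 fell by 0.98 and Npc1l1 was lower, of 7 uptake and binding genes. Among the regulators, Nr5a2 and Foxa3 were lower beside Hnf4a itself.

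At 48 h with vehicle 10 of the 56 tested genes in these lists were called higher and 19 lower, beside 15.3% and 15.7% of all genes. Hnf4a itself was among those lower. Apoc1 fell by 2.29 (adjusted p 0.000212), and Clu, a secreted chaperone also called apolipoprotein J, rose by 1.83 (adjusted p 0.000172). Lipid ester synthesis had 6 of 10 lower and none higher, led by Lpin1 (138 ± 74.7 to 13.3 ± 3.86 CPM) and Soat2 (12.7 ± 2.65 to 1.62 ± 0.0163 CPM). Abcg1, a sterol efflux transporter, rose by 3.47 and Fabp5 fell by 1.68. Lipg, endothelial lipase, fell by 2.11 and Angptl4, an inhibitor of lipoprotein lipase, rose by 1.59.

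With doxycycline in H1651, 6 of the 65 tested genes of these lists were called higher, HNF4A itself among them, and 1 lower, beside 1.04% and 0.386% of all genes. A1CF, a cofactor of APOB RNA editing, rose from 8.50 ± 0.0145 to 20.7 ± 1.20 CPM (1.28, adjusted p 0.00529). LIPA rose by 0.67 and LRP1 by 0.55, MOGAT2 was higher at a level under 10 CPM, and CD36, a fatty acid translocase, fell from 27.0 ± 2.98 to 9.87 ± 2.10 CPM (-1.45, adjusted p 0.0125). None of 4 other apolipoproteins and none of 4 efflux and transfer genes was called.

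**Figure D4:**
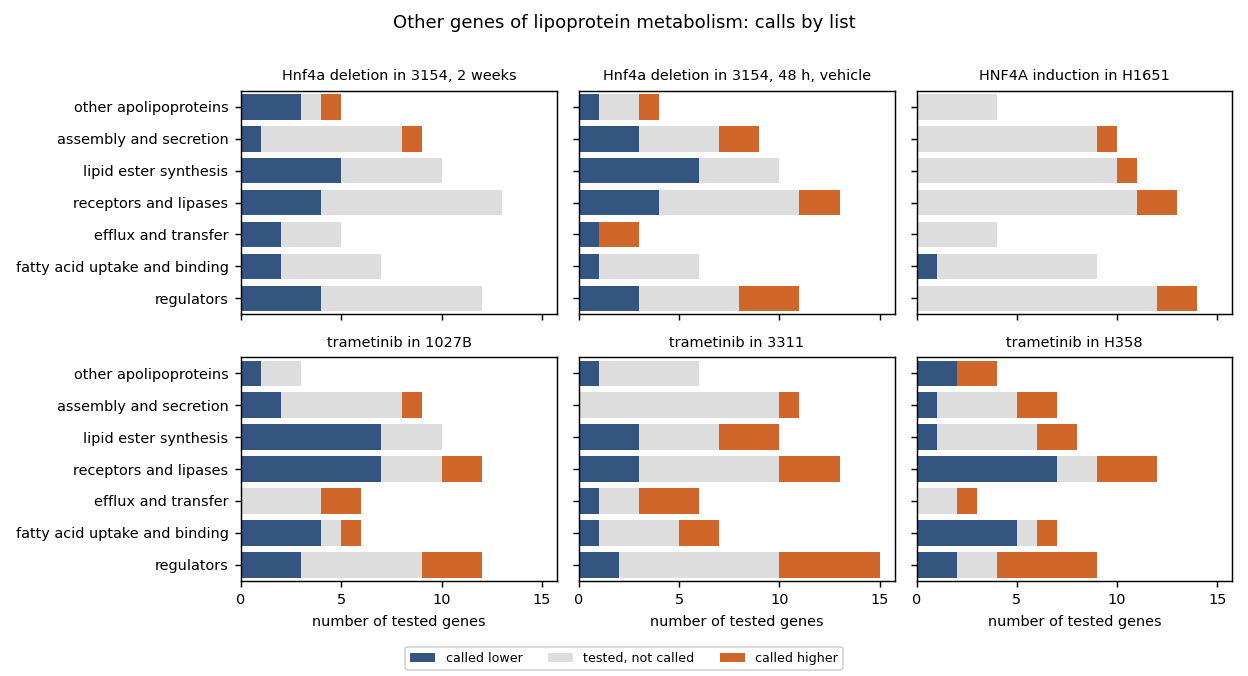
Number of tested genes of each further list (rows) that were called lower, called higher or not called in 6 comparisons; the bar length is the number of tested genes. Lipid ester synthesis has no gene called higher in either 3154 deletion comparison or in 1027B with trametinib.

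Under trametinib 9 of 58 tested genes of these lists were called higher and 24 lower in 1027B, where 26.7% of all genes were called. In 3311, 17 of 68 were higher and 11 lower, near the 39% of all genes called there, and in H358 16 of 50 were higher and 18 lower, where 46.8% of all genes were called. Differences between cultures were not tested. In 1027B, 7 of 10 genes of lipid ester synthesis were lower, led by Lpin1 (-2.04) and Acsl5 (830.3 ± 24.6 to 394 ± 3.80 CPM), and Fabp4 (-3.79) and Cd36 (-2.39) fell. Apoc1, a small exchangeable apolipoprotein, fell by 1.77 (adjusted p 0.0201), while Lipa, lysosomal acid lipase, rose by 1.54. Of the 12 tested receptors and lipases, Lipa's list, 7 were called lower and 2 higher. Abcg5 and Abcg8 were higher with either inhibitor at levels under 10 CPM. In 3311 the sterol transporters Abcg8 (1.76 ± 1.85 to 35.0 ± 13.9 CPM) and Abcg5 (2.06 ± 1.71 to 31.9 ± 11.3 CPM) rose by 4.33 and 3.96, Fabp3 by 3.63 and Lrp2, an endocytic receptor, by 4.25, and Mogat2 fell by 2.12. In H358 CLU rose by 1.83 beside APOE, and LRP8, a receptor of APOE, fell from 67.6 ± 7.89 to 6.91 ± 0.385 CPM (-3.29), while FABP5 fell by 1.56. Genes named here without a value were named after their values were seen.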

How the data were processed

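Poly(A) RNA was sequenced with a directional kit as paired reads, per the labels' protocols. The files are 7 gene tables, which the authors deposited as raw counts. The submitters' processing notes name cutadapt 3.5, STAR 2.7.6a and featureCounts 1.6.3, with builds mm10, mm39 and hg38 in no stated role; the strand setting of the counting is not given in the sources used here. The tables' columns were assigned by their names. The columns of the 3311 table name no cell line and were taken as 3311 from the table's name.

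Each table was fitted alone with edgeR 4.0.16 in R 4.3.3 (filterByExpr, TMM, quasi-likelihood F-test, no replicate block), with all its groups in 1 fit, Benjamini-Hochberg adjustment over all genes tested and a threshold of 0.05. CPM values use TMM-scaled totals. The scripts were tested on simulated data. Alternatives were DESeq2 1.42.0, upper-quartile or RLE scaling, dropping the count filter, at least 10 counts in every library, only the 2 groups compared, the replicate block and leaving out each library.

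Replicates of a group differed by more than sampling noise (chi-square per degree of freedom 5.40 to 79.5). Libraries with the same replicate number were taken as paired only in 1027B, where deviations from the group means correlated in all 3 pairs of groups (0.243, 0.372 and 0.414); in the 48 h 3154 table the 6 values ran from -0.251 to 0.549. Other tables have only 1 pair of groups.

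The members and lists were chosen with earlier results of these data known. Named genes are all members and, of each further list (other apolipoproteins, assembly and secretion, lipid ester synthesis, receptors and lipases, efflux and transfer, fatty acid uptake and binding, regulators), up to 2 called genes with the largest change at 10 CPM or more. Marker lists covered epithelial, macrophage, fibroblast, endothelial, hepatocyte and enterocyte genes. Some alleles and list genes are not reported here, although list counts include all tested genes.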

Additional observations from a re-analysis of the deposited data

Results flagged for a closer look

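Apoe moved in opposite directions under trametinib in different cultures. The log2 fold change of APOE was 1.88 in H358, where both trametinib libraries were above both vehicle libraries, while that of Apoe was -0.89 in 3311 and -4.10 in 1027B, where both were below. Fabp2 had 1.74 in 3311 and -1.89 in 1027B, again without overlap in either culture, although the 1027B value did not pass (adjusted p 0.0705, edgeR). The cultures were in separate tables at doses of 20 nM, 50 nM and 10 nM, and the differences between them were not tested.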

How the results depend on the processing

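After 2 weeks of deletion the 5 calls became 2 with at least 10 counts in every library and 3 to 5 on leaving out a library. At 48 h with vehicle the 1 call became 1 to 2 on leaving out a library, and with MRTX1133 the 2 calls became 3 with DESeq2 and without a filter, and 1 with upper-quartile factors, with at least 10 counts, with only the 2 groups compared and on leaving out any library. The 1 call for MRTX1133 after deletion became 0 with upper-quartile factors and on leaving out any library. The 7 doxycycline calls became 6 with upper-quartile factors, 8 with DESeq2 and without a filter, 0 with at least 10 counts in every library, since that filter removes all members but APOE (adjusted p 0.0587), and 7 to 8 on leaving out a library. In 3311 the 3 calls became 4 with DESeq2, 2 with at least 10 counts, and 1 to 5 on leaving out a library. In 1027B with trametinib the 2 calls became 3 with DESeq2 and without a filter, 1 with at least 10 counts and with only the 2 groups, and 1 to 3 on leaving out a library, and with MRTX1133 the 1 call became 0 to 1. DESeq2 gave 1 call where MRTX1133 and trametinib were compared directly. Except for the filter, the cause was not tested.

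With the replicate block, the count of members called rose from 0 to 1 in H1651 with trametinib (APOE 0.29, adjusted p 0.0203), from 3 to 6 in 3311 (adding Apoa4 2.75, adjusted p 0.00467, Apoa1 -1.46, 0.00847, and Fabp1 -1.28, 0.00346), from 1 to 2 in 1027B with MRTX1133 and from 0 to 1 in the direct comparison; FABP1 was also called with doxycycline (4.18, adjusted p 5.03e-10), and Fabp2 in 1027B with trametinib. Outside 1027B the libraries share only a number, whose deviations correlated at 0.427 (3154, 2 weeks), 0.318 (doxycycline), 0.623 (H1651), 0.318 (H358) and 0.126 (3311). Fits of 2 groups with the block, or with 3 libraries, keep 1 residual degree of freedom and take most of their spread from the other genes.

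Among single members, 26 values under alternatives turned sign, none of them called, and 24 of these on leaving out a library. The other 2 were Mttp after deletion in the 48 h experiment with vehicle, at 0.059 with upper-quartile factors and 0.013 with at least 10 counts. On leaving out libraries, log2 fold changes crossed 0 for Apoe after 2 weeks (-0.83 to 0.00039), Mttp at 48 h with vehicle (-0.094 to 0.046), Fabp2 (-0.40 to 3.15) with MRTX1133 and intact Hnf4a, Apoe (-0.32 to 0.13) and Mttp (-0.076 to 0.14) with MRTX1133 after deletion, Apoe (-0.023 to 0.43) and Fabp2 (-2.98 to 0.57) in the interaction, APOM in H1651 (-0.80 to 0.22) and MTTP in H358 (-0.054 to 0.25) with trametinib, Apob (-0.28 to 1.72) and Mttp (-0.91 to 0.073) in 3311, Mttp in 1027B with MRTX1133 (-0.062 to 0.82), and Apob (-0.49 to 1.66), Mttp (-0.23 to 0.11) and Apoa1 (-0.73 to 0.14) in the direct comparison.

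All-gene counts moved by more than 1.5 times from 1421 to 2336 (DESeq2) and 4563 (block) after 2 weeks, from 4795 to 3154 (only 2 groups) at 48 h with vehicle, from 54 to 319 (DESeq2) and 0 (only 2 groups) for MRTX1133 with intact and from 717 to 1291 and 3932 with deleted Hnf4a, from 0 to 30 (DESeq2) for the interaction, from 247 to 441 (DESeq2) and 3048 (block) with doxycycline, from 0 to 47 (DESeq2), 2 (no filter) and 1881 (block) in H1651, from 3880 to 6540 (block) in 1027B with trametinib, from 913 to 1593 (DESeq2) and 3515 (block) with MRTX1133, and from 0 to 675 (DESeq2), 2050 (block) and 1 (only 2 groups) in the direct comparison. On leaving out 1 library the all-gene counts ran from 395 to 2790 after 2 weeks (395 and 437 without 4OHT replicates 1 and 2), 1668 to 5964 at 48 h with vehicle, 1745 to 2805 with MRTX1133, 0 to 309 for MRTX1133 with intact and 0 to 23 with deleted Hnf4a, 232 to 412 with doxycycline, 0 to 193 in H1651, 6682 to 9265 in H358, 3772 to 6298 in 3311, 1336 to 2754 in 1027B with trametinib, 138 to 349 with MRTX1133 and 0 to 2 in the direct comparison, and were 0 for the interaction, so the shares of all genes given beside the members move with single libraries. Depth limits the members that the count filter removed, and Apob, Apoc2 and Apoa4 among them were called in some alternatives only.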
